A study of Bos taurus with 12 samples.

Results

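N6-methyladenosine (m6A) peaks over exons of noncoding RNA genes were taken as all rows that the authors' annotation places in noncoding exons, from the GV peak list, the MII peak list and the table of differential peaks. They number 377 of 45202 rows, with 112 of 14222 in the GV list, 223 of 22298 in the MII list and 42 of 8682 in the differential table. Overlapping rows merged to 280 regions in 220 genes. The material was bovine oocytes cultured in vitro and collected at 2 stages, the germinal vesicle (GV) stage, where meiosis has paused in its first prophase, and metaphase of the second division (MII), where a matured oocyte waits for fertilisation. Poly(A) RNA of each stage gave 3 input libraries, and 3 further libraries held RNA pulled down with an antibody against m6A. The labels give no genotype, treatment or donor animal for either stage and do not state whether the libraries were made from different animals or culture batches. The p-values therefore cover library-to-library spread, possibly all technical.

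m6A is written on RNA by a nuclear complex built around METTL3 and METTL14, removed by FTO and ALKBH5 and bound by proteins such as YTHDC1. It is best known from messenger RNA, where it marks transcripts for decay or for translation, but long noncoding RNAs (lncRNAs), small nuclear RNAs and ribosomal RNAs carry it as well, some of them through other enzymes (METTL16 on U6, METTL5 and ZCCHC4 on ribosomal RNA). A growing oocyte stores its transcripts, largely stops transcribing before maturation and then remodels the stored pool by decay and by changes of poly(A) tails. In bulk samples fewer cells holding an RNA and less of it per cell cannot be told apart, and poly(A) selection means that RNAs without a tail were measured only as far as the beads kept them.

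Expression values covered 16675 genes in the 6 input libraries, as FPKM (fragments scaled by gene length and by library size). Between 12910 and 12953 genes were above 0 in a GV library and between 14948 and 15393 in an MII library, and no source used here gives the reads per library. Oocyte markers summed to 2082 to 2094 FPKM in GV and 2899 to 3059 FPKM in MII, and all 13 of them were measured. Of 12 cumulus and granulosa cell markers, 8 were in the table and 4 had a mean of at least 1 FPKM, and their sum was 56.6 to 59.5 FPKM in GV and 28.2 to 32.6 FPKM in MII, where HAS2, PTGS2 and VIM fell and CD44 did not pass the test. Of 10 markers of theca, blood, stroma and immune cells 3 were tested and 2 rose, and their sum was 32.3 to 34.2 FPKM in GV and 38.9 to 39.7 FPKM in MII. The part of such cells in the results was not tested. Each stage has 1 peak list with no value per library, so the lists have no replicate check, and the enrichments, p-values and adjusted p-values printed for peaks are the authors' own.

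The hosts were 144 lncRNA genes, 48 pseudogenes, 24 small RNA genes and 4 mitochondrial ribosomal or transfer RNA genes. The 209 hosts with an expression value had the same noncoding type there as in the peak lists, and none of them was listed as protein coding, while 11 hosts had no expression value. Only 35 of the 220 hosts had a name other than an Ensembl identifier. Some of those names are symbols of protein-coding genes in other mammals. CEBPG, a transcription factor of the C/EBP family, and CDC42SE1, an effector of the GTPase CDC42, were labelled lncRNA, and PKD1, the gene of polycystin-1, and CRIP2, a LIM domain protein, were labelled pseudogene. The files do not say whether the RNA of these hosts is translated in the oocyte.

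lncRNA genes held 73 of 112 GV peaks and 143 of 223 MII peaks. Pseudogenes held 30 and 56, small RNAs 7 and 18, and the mitochondrial genes 2 and 6. All 14222 GV peaks included 0.788% over noncoding exons (95% Clopper-Pearson interval 0.649 to 0.947), and all 22298 MII peaks included 1.0% (0.874 to 1.14). These intervals overlap and cover counting error only. Most hosts had a single peak in a list. In GV 74 hosts had 1 peak, 14 had 2 and 3 had 3 or more, and in MII the counts were 144, 29 and 5, which gives 1.23 and 1.25 peaks per gene against 2.13 and 2.33 over all other annotations. The lncRNA ENSBTAG00000052673 held the largest number, with 6 MII peaks between chr9:94818359-94819378, near the 3′ end of the gene, and 1 GV peak there.

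The median peak spanned 297 bp in GV and 239 bp in MII, against 540 and 958 bp for all other annotations, where a span runs along the genome and includes introns. The median host had a mean of 4.60 FPKM for the GV peaks and 3.34 FPKM for the MII peaks, against 13.6 and 12.0 FPKM. When each gene was cut into 3 equal parts from the 5′ to the 3′ end, the parts held 35, 43 and 34 GV peaks and 69, 78 and 76 MII peaks.

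The median enrichment, log2 of immunoprecipitate over input, was 2.78 for the GV peaks and 2.15 for the MII peaks, against 2.62 and 1.67 for peaks of all other annotations. At a deposited adjusted p under 0.05 stood 64 of 112 GV peaks (57.1%), where 75.9% of the whole list did, and 138 of 223 MII peaks (61.9%), where 82.6% of the whole list did. These shares describe lists with no replicates. The input level of the host moved with both measures. Over hosts of at least 10 FPKM in the stage, 90.6% of 32 GV peaks passed, against 87.4% of other peaks, and their median was 2.48 against 2.27. In MII 85.2% of 61 such peaks passed, against 92.8%, with medians of 1.47 and 1.45. Over hosts between 1 and 10 FPKM the shares were 45.3% and 58.7% in GV and 54.1% and 71.7% in MII. Below 1 FPKM the noncoding peaks had the higher shares, with 43.5% against 34.8% in GV and 53.5% against 45.6% in MII. Many enrichments were exact repeats of one value. An enrichment shared by at least 20 peaks of its list was carried by 82.1% of the GV peaks and 92.8% of the MII peaks, against 60.0% and 84.5% elsewhere, so many peaks are tied in rank.

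**Figure D1:**
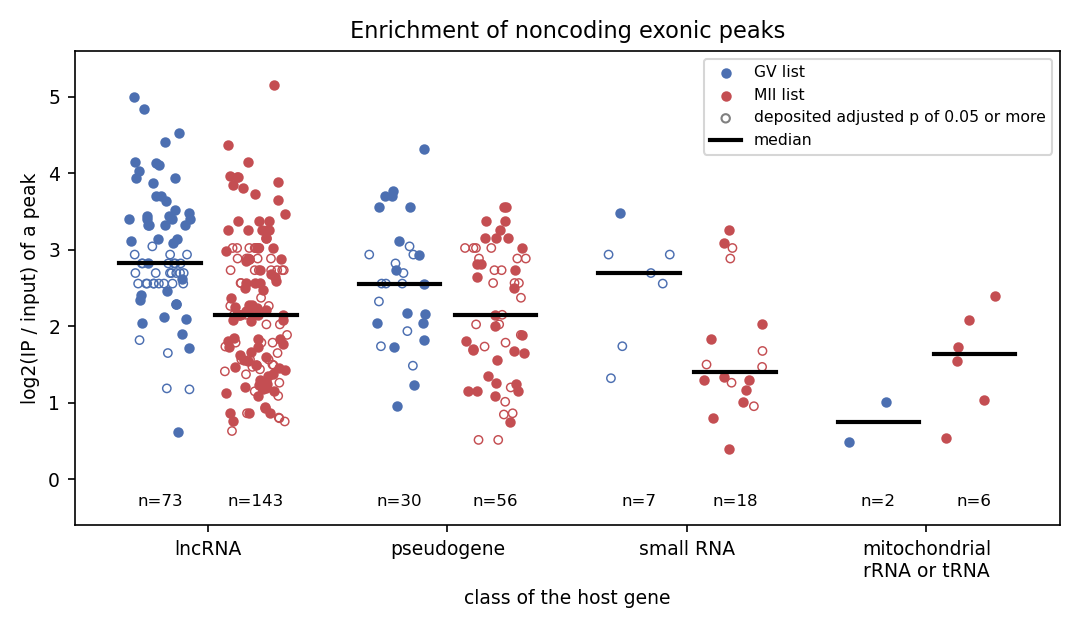
Enrichment of each noncoding exonic peak, log2 of immunoprecipitate over input, by class of the host gene and stage, with filled points at a deposited adjusted p under 0.05, open points for the rest and bars at the medians. lncRNA peaks reach 4.99 in GV and 5.15 in MII, and the medians of lncRNA, pseudogene and small RNA peaks are lower in the MII list, while the mitochondrial median is higher.

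By class the medians were 2.82 in GV and 2.15 in MII for lncRNA peaks, 2.56 and 2.15 for pseudogene peaks, 2.70 and 1.40 for small RNA peaks and 0.75 and 1.64 for mitochondrial peaks. Mitochondrial peaks thus had the lowest median of the classes in GV. Of the 7 small RNA peaks in GV only 1 passed the adjusted threshold, against 11 of 18 in MII.

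The most enriched GV peak lay in the lncRNA ENSBTAG00000050833, at chr1:82503639-82504168 on the minus strand, with an enrichment of 4.99 and a deposited adjusted p of 3.63e-09. The next was in ENSBTAG00000048438, at chr2:101011912-101012178 on the minus strand, at 4.84 with a deposited adjusted p of 1e-120. Genome coordinates count from 1, and the sources used here name no build. The list went on with the lncRNA ENSBTAG00000053802 (4.53), the lncRNA ENSBTAG00000054434 (4.41) and PKD1 (4.32). All 5 passed the deposited adjusted threshold.

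In MII the most enriched peak lay in the lncRNA ENSBTAG00000049149, with 5.15 and a deposited adjusted p of 6.17e-10, and spanned 100805 bp of chromosome 27. It had no counterpart in the GV list, with input levels of 12.2, 12.4 and 10.04 FPKM in the GV libraries and 14.1, 11.3 and 11.9 FPKM in the MII libraries. The stages overlapped in this host, and limma gave it an adjusted p of 0.478. The lncRNA ENSBTAG00000048837 followed with 4.37 and ENSBTAG00000049623 with 4.15. ENSBTAG00000049459, near the transferrin receptor gene TFRC, was the one host among the 10 most enriched peaks of both lists. Its peaks stood at 4.13 in GV and 3.96 in MII, with deposited adjusted p-values of 3.98e-71 and 1e-193. Its input RNA stood at 21.3, 21.3 and 24.2 FPKM in GV and 25.8, 33.3 and 32.4 FPKM in MII, every MII library above every GV library, and rose by 0.43 on the log2(FPKM + 1) scale (SE 0.11, limma adjusted p = 0.00885). Of the other MII peaks in the top 10, those of ENSBTAG00000048571, ENSBTAG00000049765, ENSBTAG00000051131 and ENSBTAG00000053455 had hosts listed at 0 in every GV library.

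Peaks were listed over genes whose input RNA was not. Of 87 GV hosts with an expression value, 13 were listed at 0 in all 3 GV input libraries (14.9%, 95% interval 8.20 to 24.2), against 2.71% of the genes with other GV peaks. In MII this held for 3 of 170 hosts (1.76%, 0.365 to 5.07), against 0.0531% of other genes. Of the 13 GV hosts, 12 were lncRNAs, their enrichments ran from 2.56 to 4.84, and 11 averaged at least 1 FPKM in MII, up to 7.95 FPKM. ENSBTAG00000048438 was the most enriched of them. Its input values were 0 in every GV library and 3.33, 4.11 and 4.40 FPKM in the MII libraries, although its GV peak had the adjusted p given above. That peak ends at the edge of the gene, 20 bases from the coding gene IKZF2 on the same strand. IKZF2 stood at 4.00, 4.97 and 3.60 FPKM in the GV libraries and had 2 GV peaks of its own. Whether the peak belongs to IKZF2 RNA was not tested. Of 73 genes named as ribosomal proteins, 1 was also listed at 0 in every GV library and above 10 FPKM in every MII library. Among all 11739 genes tested, 260 were listed at 0 in every GV library. Whether such a value of 0 is a failed estimate of abundance was not tested. No fold is given for hosts listed at 0 in every GV library.

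Genes and positions were shared between stages in part. The GV list had 91 hosts and the MII list 178, and 49 were in both, which is 53.8% of the GV hosts and 27.5% of the MII hosts. By position, 54 of 112 GV peaks (48.2%, 95% interval 38.7 to 57.9) shared at least 1 bp and the strand with an MII noncoding peak, and 53 of 223 MII peaks (23.8%, 18.3 to 29.9) overlapped a GV one. Among peaks of all other annotations, counted against the other stage's peaks of those annotations, the shares were 64.2% of GV and 40.1% of MII peaks. When each peak had to cover 50% of the other, 25 pairs were left, 22.3% of the GV and 11.2% of the MII peaks. Allowing a partner of any annotation added none.

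Where GV and MII peaks overlapped, the MII enrichment was usually the lower one. There were 55 such pairs, and MII was lower in 43 (78.2%), with a median difference of -0.95 on the log2 scale. Over the pairs of all other annotations MII was lower in 68.8%, with a median of -0.68, so the direction was that of the lists as a whole. MII was lower in 30 of 38 lncRNA pairs and 12 of 14 pseudogene pairs. In both mitochondrial pairs it was higher, by 0.72 and 1.60. ENSBTAG00000053802 differed most. Its GV peak at 4.53 ran over 2 MII peaks at 1.13 and 1.18. The opposite end was the lncRNA ENSBTAG00000048837, where an MII peak at 4.37 covered GV peaks at 3.41 and 2.1. Over the lower of these GV peaks the authors' deposited change was only 0.64 and did not pass (deposited adjusted p = 0.0617).

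**Figure D2:**
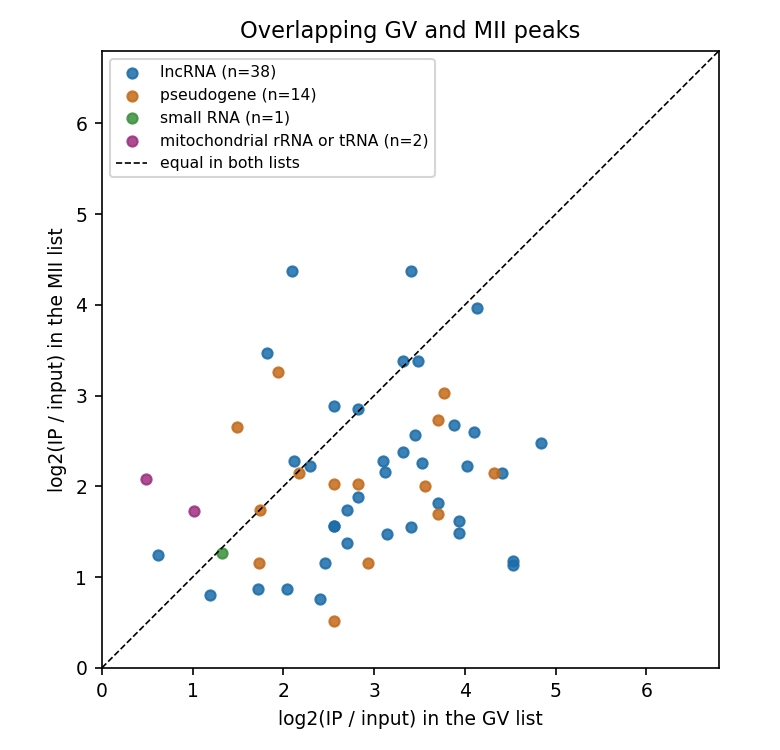
Enrichment of the 55 overlapping pairs of GV (horizontal) and MII (vertical) noncoding exonic peaks, as log2 of immunoprecipitate over input, with the dashed line at equal values. 43 pairs lie below the line, and both mitochondrial pairs lie above it.

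Differential peaks were next compared between stages, from the authors' deposited table, whose values come from the same libraries as both lists. That table holds only peaks with a deposited unadjusted p of at most 0.049. Passing an adjusted 0.05 was thus largely fixed by that cut, and the share of all noncoding peaks that changed is unknown. Of the 42 noncoding peaks, 25 were higher in MII and 12 lower at a deposited adjusted p under 0.05 in the authors' deposited table, and 5 did not pass. By the same rule 63% of all 8682 peaks were higher and 31% lower, and the noncoding peaks had 59.5% and 28.6%, a share near this background. The authors' own mark of significance, a log2 change of at least 1 in either direction besides the p-value, was set in the authors' deposited table for 21 higher and 12 lower noncoding peaks, where 50.9% and 21.9% of all its peaks carry it. Of all 42 noncoding peaks, with direction counted by the adjusted p alone, lncRNAs held 28 (16 higher and 7 lower) and pseudogenes 8 (3 higher and 5 lower). Mitochondrial genes held 6 (all higher), and no small RNA peak was in the authors' deposited table. Of the 42 peaks 21 lay over no GV peak and 7 over no MII peak.

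The largest value higher in MII in the authors' deposited table was 5.17 on the log2 scale (deposited adjusted p = 0.0182), in the lncRNA ENSBTAG00000051649. Its host stood at 2.83, 1.54 and 1.95 FPKM in GV and 1.21, 2.29 and 3.00 FPKM in MII. Those stages overlap, and limma gave the host an adjusted p of 0.983. CRIP2 followed with 3.14 in the authors' deposited table, and there the host's RNA also rose, from 4.00, 7.05 and 4.92 FPKM to 12.9, 13.5 and 14.0 FPKM (1.22 on the log2(FPKM + 1) scale, SE 0.17, limma adjusted p = 0.000526). CRIP2 thus had a higher peak and more input RNA at MII. ENSBTAG00000049623 held 3 differential peaks, at 3.08, 1.59 and 1.5 in the authors' deposited table. Its input values were 26.3, 29.3 and 26 FPKM in GV and 27.5, 23.8 and 22.8 FPKM in MII, which overlap (limma adjusted p = 0.192, or 0.0484 without MII library 1), and the GV list had no noncoding peak in it.

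The most abundant lncRNA host, ENSBTAG00000053893 on chromosome 4, also held 3 peaks that were higher in MII, at 2.60, 1.59 and 1.11 in the authors' deposited table, with deposited adjusted p-values of 2.51e-68, 1e-237 and 3.98e-50. Its input RNA stood at 456, 472 and 487 FPKM in the GV libraries and 413, 466 and 409 FPKM in the MII libraries. The stages overlapped, and limma gave it an adjusted p of 0.0687, or, lower in MII, 0.0072 without MII library 2, 0.0465 with median scaling and 0.0178 with quantile normalization. In the lists its enrichment was 0.62 in GV and 1.28 and 1.24 in MII, low beside other lncRNA peaks but resting on far more RNA. CDC42SE1 had a value of 2.36 in the authors' deposited table, while its host RNA, at 11.6, 14.8 and 12.7 FPKM in GV and 15.4, 13 and 14.7 FPKM in MII, did not pass the test (limma adjusted p = 0.307).

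Among peaks lower in MII, PKD1 was lowest at -4.52 in the authors' deposited table (deposited adjusted p = 0.00589). Its host RNA fell as well, from 2.69, 2.81 and 2.50 FPKM to 2.17, 1.81 and 1.79 FPKM, with no overlap (-0.33 on the log2(FPKM + 1) scale, SE 0.12, limma adjusted p = 0.0483). This call was lost without any 1 of 5 of the 6 libraries (all but MII library 1), with adjusted p-values of 0.0771 to 0.129. ENSBTAG00000050833 followed with -4.24 in the authors' deposited table, and its RNA went the other way, from 2.51, 4.04 and 3.05 FPKM to 8.97, 8.02 and 5.08 FPKM (0.98, SE 0.21, limma adjusted p = 0.00543). A peak lower in MII over a host that rose was also seen in ENSBTAG00000053802, with -2.08 in the authors' deposited table, and in ENSBTAG00000051158, with -1.34. The rise of ENSBTAG00000053802 (limma adjusted p = 0.0184) was lost without MII library 2 or without GV library 2 or 3, at 0.0572 to 0.0593. ENSBTAG00000051158 stood at 2.36, 3.37 and 2.26 FPKM in GV and 10.2, 9.66 and 10.2 FPKM in MII, with no overlap (1.60, SE 0.13, limma adjusted p = 4.96e-05).

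The pseudogene ENSBTAG00000047968 on chromosome 15 held 3 differential peaks, all lower in MII, at -2.02, -1.98 and -1.26 in the authors' deposited table. Its host RNA was 14.5, 14.8 and 17.2 FPKM in GV and 13.7, 15.5 and 15.8 FPKM in MII, which overlap (limma adjusted p = 0.699). CEBPG had a peak of 6983 bp at -1.13 in the authors' deposited table, over 1 GV peak at 4.1 and 1 MII peak at 2.60, with host levels of 23.9, 26.6 and 27.0 FPKM in GV and 25.6, 29.1 and 31.2 FPKM in MII (limma adjusted p = 0.19). In 12 of the 42 cases a differential peak lay over exactly 1 GV and 1 MII peak, and its sign was that of the list difference in all but 1, which was ENSBTAG00000048329. That lncRNA had an enrichment of 3.09 at GV and 2.28 at MII, and 1.78 in the authors' deposited table. It was singled out after its values were seen.

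**Figure D3:**
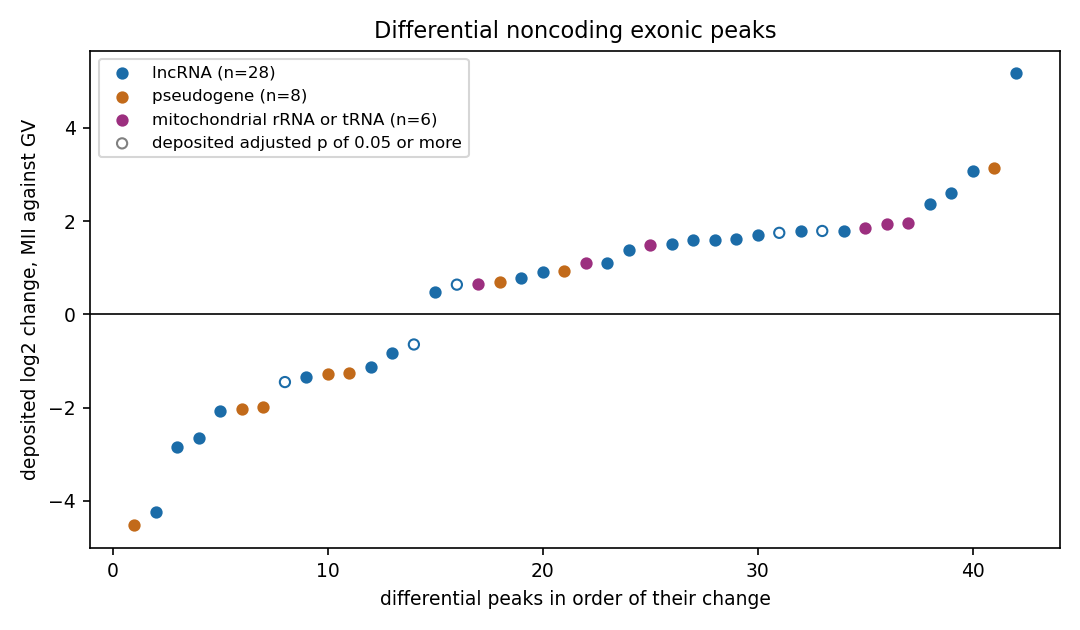
Deposited log2 change, MII against GV, of the 42 differential noncoding exonic peaks in order of size, coloured by class of the host gene, with open points where the deposited adjusted p was 0.05 or more. Values run from -4.52 (PKD1) to 5.17 (ENSBTAG00000051649), and all 6 mitochondrial peaks are above 0.

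The input RNA of the hosts was compared between stages with limma on log2(FPKM + 1), over genes averaging 1 FPKM or more. Of 220 hosts 151 were tested, since 11 had no value and 58 were too low. At an adjusted p under 0.05, 48 rose from GV to MII and 32 fell, which is 31.8% and 21.2%, where 32% of all 11739 genes tested rose and 28.8% fell. lncRNA hosts rose in 36 of 84 cases and fell in 10, with a median change of 0.25, or 0.17 without the 10 that were listed at 0 in every GV library. Pseudogene hosts rose in 11 of 42 cases and fell in 7 (4 without GV library 3), with a median of -0.10. Small RNA hosts fell in 12 of 21 cases and none rose (1 without MII library 2, the unnamed ENSBTAG00000054696), with a median of -0.47, and mitochondrial hosts fell in 3 of 4 cases and rose in 1. Noncoding genes without such a peak rose in 136 of 640 cases and fell in 199, with a median of -0.20, against 0.01 over all genes tested. The filter on the mean kept hosts that are high in 1 stage only, so these counts describe the tested hosts and not all 220.

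**Figure D4:**
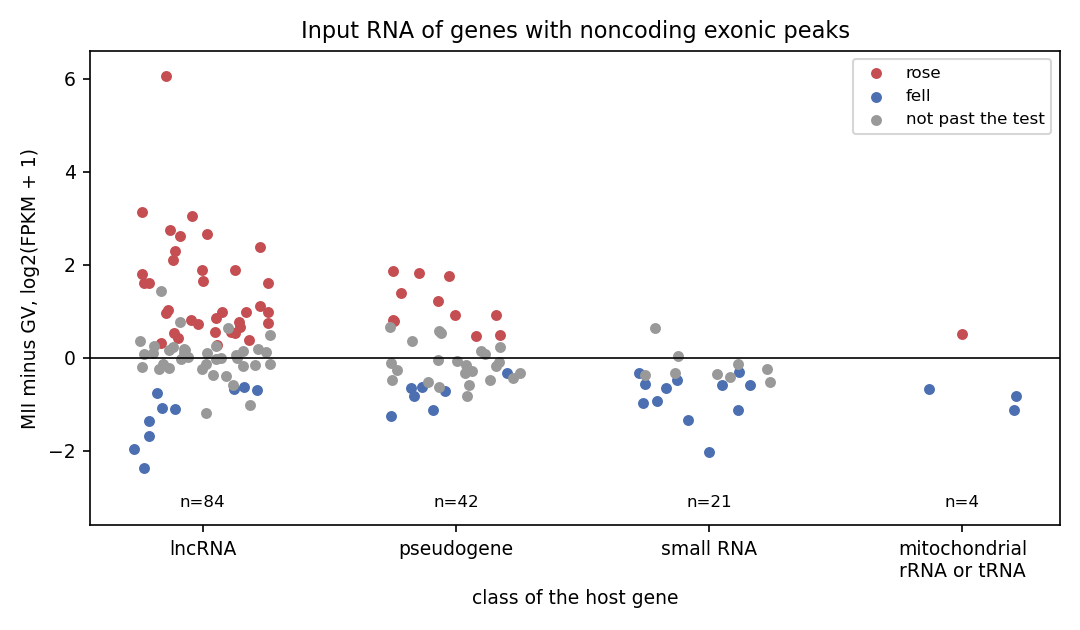
MII minus GV difference in log2(FPKM + 1) of the 151 tested host genes, by class, coloured by the limma call at an adjusted p under 0.05. The lncRNA hosts have 36 rises, 10 of them in genes listed at 0 in every GV library, and 10 falls, while 12 of 21 small RNA hosts and 3 of 4 mitochondrial hosts fell.

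Hosts split by the list that held their peak. Of 29 tested hosts with a peak only in the GV list, 13 rose and 2 fell. Of 78 with a peak only in the MII list, 19 rose and 23 fell. Of 44 with peaks in both, 16 rose and 7 fell. Over all genes tested 32% rose and 28.8% fell. Of the tested hosts listed at 0 in every GV library, 4 had a peak only in the GV list, 4 only in the MII list and 2 in both. These splits were not tested against each other.

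The 10 largest rises were all lncRNAs, and 7 of them were listed at 0 in every GV library. The other 3, ENSBTAG00000048844, ENSBTAG00000052101 and ENSBTAG00000053123, rose by 1.88 to 3.05 on the log2(FPKM + 1) scale. ENSBTAG00000032733 was highest, listed at 0 in the 3 GV libraries and at 66.5, 64.4 and 64.7 FPKM in the MII libraries. Such hosts passed the filter on the mean through MII alone, and with the doubt about values of 0 their calls and their place among the largest rises are given with no p-value. It held 1 MII peak at 1.21 and a differential peak at 1.61 in the authors' deposited table. ENSBTAG00000053123 was measured in both stages, at 5.22, 4.65 and 4.37 FPKM in GV and 32.7, 38.3 and 41.2 FPKM in MII, and rose by 2.74 (SE 0.10, limma adjusted p = 1.84e-06). Every MII library was above every GV library, yet its one peak was in the GV list, at 2.82. That peak did not pass the adjusted threshold (deposited adjusted p = 0.105). ENSBTAG00000048844 rose from 1.27, 0.955 and 1.03 FPKM to 6.23, 7.75 and 6.12 FPKM (1.88, SE 0.13, limma adjusted p = 2.66e-05), again with no overlap. Of the 10 hosts 6 had a GV peak. Without the hosts listed at 0 in every GV library, 38 hosts rose.

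The 10 largest falls were 4 lncRNAs, 3 small RNAs, 2 pseudogenes and 1 mitochondrial ribosomal RNA, from -2.37 to -1.12, and only 1 of them, the mitochondrial one, had a GV peak. ENSBTAG00000052283 on chromosome 24 stood at 11.6, 9.0 and 10.1 FPKM in GV and at 2.25, 0 and 2.14 FPKM in MII, and fell by 2.37 (SE 0.42, limma adjusted p = 0.00208). MII library 2 was at 0 there, and the stages did not overlap. ENSBTAG00000054102 fell from 11.6, 7.24 and 8.76 FPKM to 1.42, 1.45 and 1.88 FPKM (-1.96, SE 0.17, limma adjusted p = 6.39e-05). ENSBTAG00000052187 fell from 11.4, 10.2 and 10.3 FPKM to 1.93, 2.58 and 3.54 FPKM (-1.68, SE 0.16, limma adjusted p = 0.000104). All 3 had their only peak in the MII list, where their RNA was lower. None of these 3 peaks passed the adjusted threshold, with deposited adjusted p-values of 0.16, 0.1 and 0.274. The pseudogene ENSBTAG00000010813 stood at 2.47, 8.49 and 8.71 FPKM in GV and 2.1, 1.46 and 2.17 FPKM in MII, and its limma adjusted p of 0.0234 became 0.0507 to 0.0786 without any 1 of 5 of the 6 libraries (all but GV library 1). In GV library 1 it stood near the MII libraries.

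**Figure D5:**
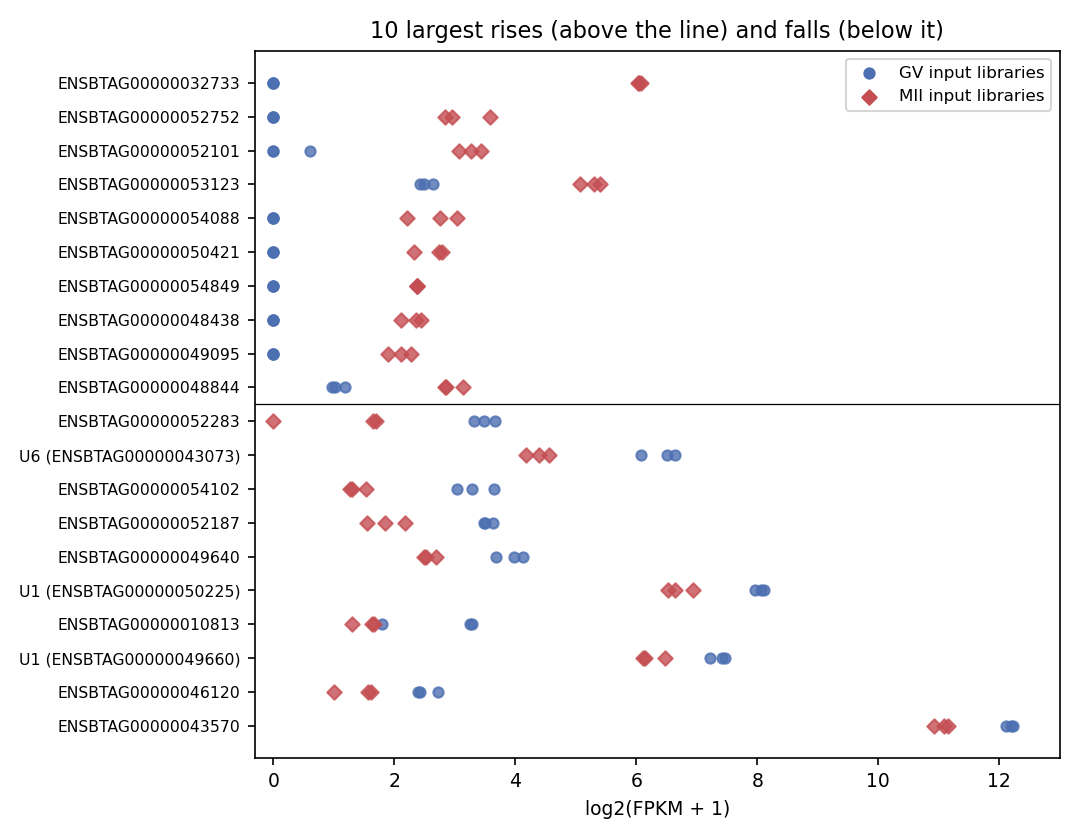
log2(FPKM + 1) of the 10 hosts with the largest rise (above the line) and the 10 with the largest fall (below it), with circles for the 3 GV and diamonds for the 3 MII input libraries. In all 20 hosts, picked as the largest changes past the test, the 2 stages do not overlap. The same held for 47 of all 48 hosts that rose and for all 32 that fell. These were picked by the same test, which favours stages that do not overlap. The share over all genes past the test was not computed. Of the rising hosts shown, 7 sit at 0 in every GV library.

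Apart from 2 unnamed genes, small RNA hosts belong to named families of structural RNAs. Several are near-identical copies among which reads cannot be placed with certainty. The 4 genes of 5S ribosomal RNA, a part of the large ribosomal subunit, all fell, by 0.56 to 0.93 on the log2(FPKM + 1) scale. Quantile normalization left the most abundant one without change, as it must for a gene of equal rank in every library. That setting cannot test its fall. The most abundant stood at 30104, 30821 and 30246 FPKM in GV and 15619, 14891 and 17579 FPKM in MII (limma adjusted p = 5.71e-05). The 3 genes of the signal recognition particle RNA, which guides nascent secretory proteins to the endoplasmic reticulum, fell by 0.30 to 0.97. Of 6 genes of U1, the small nuclear RNA that recognises 5′ splice sites, 5 were tested and 4 fell, by up to 1.35. The smallest of these falls, in ENSBTAG00000054612 (limma adjusted p = 0.0208), was lost without 1 of 4 libraries, at 0.054 to 0.0696. The U6 gene on chromosome 22, a component of the catalytic core of the spliceosome, fell most, from 66.5, 90.2 and 98.7 FPKM to 20, 17.05 and 22.6 FPKM (-2.03, SE 0.15, limma adjusted p = 3.46e-05). All GV libraries were above all MII libraries. It lies within TMCC1 on the opposite strand, and no source used here says whether the counting used the strand.

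The MII list held 18 peaks over small RNAs and the GV list 7. The 4 5S peaks stood between 0.40 and 1.33 and were all MII peaks, as were the 3 signal recognition particle peaks at 0.80 to 1.5. Others were higher, with U1 peaks of 3.26 and 3.02 and a U6 peak of 3.09 in MII, and a 7SK peak of 3.49 in GV. None of the small RNAs had a differential peak. U2, U4, U5, the 7SK RNA that holds the elongation factor P-TEFb inactive, and the small nucleolar RNA SNORD24 had a peak each or, for U4, 3 in 2 genes, and none of their hosts passed the test with all libraries. Single libraries decided this for SNORD24, which passed without MII library 3 (limma adjusted p = 0.00426), for 7SK without MII library 2 (0.0441) and for the U4 gene ENSBTAG00000054016 without GV library 2 (0.0269). In 2 cases the peak was longer than the gene it was assigned to. The GV peak of SNORD31 covers 490 bp around a gene of 68 bp whose RNA was listed at 0 in every GV library, and the GV peak of the U6 gene on chromosome 3 spans 292143 bp around a gene of 106 bp. Both genes lie within a gene on the same strand, ENSBTAG00000054053 and ENSBTAG00000051499, and neither peak passed the adjusted threshold.

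In the mitochondrial genome the peaks were higher in MII while most of the RNA fell. The ribosomal RNA ENSBTAG00000043567 (chrMT:431-1385) had an enrichment of 0.49 in GV and 2.08 in MII and a change of 1.86 in the authors' deposited table. Its input RNA fell from 4892, 5334 and 5355 FPKM to 2946, 2656 and 3182 FPKM (-0.83, SE 0.07, limma adjusted p = 6.97e-05), with no overlap between stages. The ribosomal RNA ENSBTAG00000043570 (chrMT:1453-3023) had 2 differential peaks, at 0.65 and 1.48 in the authors' deposited table, and fell from 4427, 4668 and 4770 FPKM to 2171, 1946 and 2280 FPKM (-1.12, SE 0.07, limma adjusted p = 1.25e-05). Mitochondrial ribosomal RNAs have short tails, and the poly(A) step acted on all libraries before the antibody.

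The 2 mitochondrial transfer RNA genes went opposite ways in input RNA. ENSBTAG00000043548 fell from 277, 329 and 293 FPKM to 190, 163 and 211 FPKM (-0.67, SE 0.10, limma adjusted p = 0.000793), and ENSBTAG00000043582 rose from 224, 229 and 215 FPKM to 316, 284 and 365 FPKM (0.52, SE 0.08, limma adjusted p = 0.00123). Neither had overlapping stages. Both had peaks only in the MII list, and their 3 differential peaks stood at 1.11, 1.96 and 1.95 in the authors' deposited table. The peak at 1.11 is assigned to ENSBTAG00000043548 but covers chrMT:431-520, which is the start of the ribosomal RNA ENSBTAG00000043567 next to it. ENSBTAG00000043582 overlaps a transfer RNA gene on the opposite strand.

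Some hosts lie close to coding genes on the same strand. Of 135 lncRNA hosts in the expression table, 12 ended or began with 20 bases between them and a protein-coding gene on their strand (8.89%, 95% interval 4.68 to 15.0), against 5 of 321 lncRNA genes without such a peak (1.56%, 0.508 to 3.60). In 10 of the 12 the lncRNA lay upstream of the coding gene, and 10 of the coding genes had an m6A peak of their own. Such peaks were common, since 6598 of the 16675 genes in the expression table had a GV peak of another annotation and 9423 an MII one. The share over coding genes alone was not computed. The coding neighbours of the 12 lncRNAs include BRD2, a chromatin reader of acetylated histones, NRIP1, a corepressor of nuclear receptors, and IKZF2, a zinc finger transcription factor. This spacing was noticed in the data and not looked for in advance. The same gap to a coding gene on the opposite strand was found for ENSBTAG00000048561 (ATE1), ENSBTAG00000049657 (SYT2), ENSBTAG00000050206 (BNC2) and ENSBTAG00000053773 (NBEA). How common that is among lncRNA genes without such a peak was not computed. The lncRNA next to BRD2, ENSBTAG00000052980, rose from 6.01, 5.55 and 6.88 FPKM to 10.3, 13.2 and 11.5 FPKM (0.82, SE 0.12, limma adjusted p = 0.000667), while BRD2 itself stood at 57.7, 59.3 and 63.9 FPKM in GV and 58.0, 55.8 and 60.3 FPKM in MII. The lncRNA before ZBED4, ENSBTAG00000048741, fell from 23.2, 20.5 and 20.9 FPKM to 11.3, 14.4 and 11.4 FPKM (-0.76, SE 0.10, limma adjusted p = 0.000549). Whether such a pair is 1 transcript or 2 was not tested.

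Of the 220 hosts, 7 overlapped another gene of the expression table on the same strand and 15 one on the opposite strand, so their reads may be shared. ENSBTAG00000048952 on chromosome 19 contains the microRNA gene MIR22, had GV peaks at up to 3.94 and an MII peak at 1.49, and rose from 1.85, 2.34 and 2.15 FPKM to 5.33, 5.87 and 6.0 FPKM (1.11, SE 0.12, limma adjusted p = 0.000135). Every MII library was above every GV library.

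Of 19 listed genes that write, erase or read m6A on noncoding RNA, 18 were measured, 5 rose and 7 fell, where 32% of all genes tested rose and 28.8% fell, so the counts were near those shares. The median change was -0.03 against 0.01 over all genes tested. The writer METTL14 rose, from 27.8 ± 0.564 FPKM (SD, n = 3) in GV to 39.2 ± 1.45 FPKM in MII (limma adjusted p = 0.000154), while its partner WTAP fell (58.0 ± 0.718 FPKM in GV, 34.4 ± 2.69 FPKM in MII, limma adjusted p = 5.36e-05). METTL3, at the core of the complex with METTL14, fell from 4.52 ± 0.751 to 2.87 ± 0.518 FPKM (limma adjusted p = 0.0214). That call was lost without GV library 2 or MII library 1, at 0.0647 to 0.0727. VIRMA (limma adjusted p = 0.00524) and RBM15 (limma adjusted p = 0.00295) also fell, while ZC3H13, CBLL1 and RBM15B did not pass with all libraries. METTL5 and its cofactor TRMT112, which methylate 18S ribosomal RNA, both rose, TRMT112 from 61.2 ± 2.30 to 173 ± 5.08 FPKM (limma adjusted p = 7.81e-07). METTL16, the writer of U6, stood at 19.4 ± 0.616 and 17.6 ± 1.42 FPKM and did not pass the test (limma adjusted p = 0.151), nor did the nuclear reader YTHDC1 (limma adjusted p = 0.285). The eraser ALKBH5 rose from 128 ± 4.37 to 164 ± 13.1 FPKM (limma adjusted p = 0.00154), and FTO fell (4.98 ± 0.222 FPKM in GV, 3.13 ± 0.225 FPKM in MII, limma adjusted p = 0.00314).

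Of 20 genes of the nuclear exosome and its adaptors, which degrade noncoding transcripts in the nucleus, all were tested, 5 rose and 6 fell, near the 32% and 28.8% of all genes tested, with a median of -0.01. Only 2 rose without any 1 of the libraries other than GV library 1. EXOSC8, a core subunit of the exosome ring, rose from 18.4 ± 1.29 to 44.2 ± 3.96 FPKM (limma adjusted p = 1.92e-05). ZFC3H1, a subunit of the adaptor that targets polyadenylated nuclear RNA, fell to 12.2 ± 1.23 FPKM from 19.3 ± 0.891 FPKM (limma adjusted p = 0.00052). The catalytic subunit DIS3 fell to 18.1 ± 2.39 FPKM from 22.4 ± 0.587 FPKM (limma adjusted p = 0.0246), a call lost without 1 of 4 libraries, at 0.0598 to 0.0712.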

How the data were processed

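The series holds 12 libraries of bovine oocytes. Fragmented poly(A) RNA was incubated with an m6A antibody and made into strand-marked libraries, per the labels' protocols. Tools named per the submitters' processing notes, without their roles, were HISAT2 2.0.4, HOMER 4.10, fastp 0.19.4, edgeR 4.1 and StringTie 2.1.2, and no build is named. The authors deposited FPKM per gene and input library, and per peak a log2 enrichment or log2 change with its p-value and adjusted p-value. How libraries were combined for peaks is not given.

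Host RNA was tested with limma 3.58.1 (R 4.3.3, 2-sided, moderated with a trend) on log2(FPKM + 1), which understates changes of low genes, for the 11739 genes averaging 1 FPKM or more, with Benjamini-Hochberg adjustment at 0.05. In simulated data for it, with 50 genes changed at each size among 11739, recovery was 34% for genes changed by 0.5, 84% for 1 and 90% for 2 (log2). In the measured data 32% of genes rose and 28.8% fell, a far larger share, so these rates describe the simulated setting only. Peaks overlapped from 1 bp on the same strand. File starts count from 0 (861 GV peaks start 1 base before the gene start, 0 on it), and are printed from 1. Shares have Clopper-Pearson intervals for counting error. Genes named were hosts in all 3 tables, the 10 extremes of enrichment, differential change, input change and level, hosts with the most peaks, and named small RNAs. The members and gene lists were chosen with earlier results of these data known. Alternatives changed pseudocount, filter, scaling, variance model, thresholds, overlap and classes, left out each library, and used a replicate block. Immunoprecipitated libraries were not analysed singly.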

Additional observations from a re-analysis of the deposited data

How the results depend on the processing

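Of the 104 named genes tested, 1331 refits under other settings stayed on the same side of the threshold in 1253 cases. The call was lost in 58 and gained in 20. No gene called in either fit reversed direction, and direction was not compared for genes called in neither. Host genes that rose numbered 46 to 50 and those that fell 27 to 33 when single libraries were left out (lncRNA 34 to 38 and 8 to 11, pseudogene 9 to 11 and 4 to 8, small RNA 0 to 1 and 11 to 13, mitochondrial 1 and 3). With single libraries left out, the m6A list had 4 to 6 rises and 6 to 8 falls, and the turnover list 2 to 4 and 4 to 7. With no filter 73 hosts rose (60 lncRNA). At a mean of at least 5 FPKM 25 rose (18 lncRNA, 6 pseudogene), and 6 lncRNA and 3 pseudogene hosts fell, with fewer genes tested. Under quantile normalization, which moved the median of all genes to -0.07, 11 pseudogene hosts fell and 3 turnover genes rose, and without the trend 3 turnover genes rose. The cause was not tested.

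At an FDR under 0.05, 64 GV and 138 MII peaks remained in lists cut the same way, 0.593% and 0.749%, and the GV median was 3.32. Without pseudogenes, chosen after seeing the data, the shares were 0.577% and 0.749% and 7 differential peaks were lower. Cutting the MII list to the length of the GV list, by p-value, gave 0.654% in MII, below the 0.788% of GV, a cut that changes length and stringency together. With hosts of at least 1 FPKM the MII median was 1.82. A reciprocal overlap of 50% gave 22.3% and 11.2%. Same-numbered GV and MII libraries had correlations of -0.05, -0.06 and 0.01, so the numbers do not pair them, and a replicate block gave 3612 rises and 3201 falls over all genes, against 3761 and 3379. Under it PKD1 (adjusted p = 0.0886) and NRDE2 (0.0908) did not pass in limma. Peak lists have no replicates, and depth per library is unknown.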

Other observations

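Strand was uneven in the MII list and among the differential peaks. Noncoding exonic peaks lay on the plus strand in 55 of 112 cases in GV and in 130 of 223 in MII (58.3%, 95% interval 51.5 to 64.8), and in 30 of 42 in the authors' deposited table of differential peaks (71.4%, 55.4 to 84.3). These intervals count peaks of 1 gene as independent, while the 42 differential peaks lie in 33 genes, so they are too narrow. Over all other annotations the plus strand held 50.9% of GV peaks, 57.7% of MII peaks and 53.9% of differential peaks. lncRNA ENSBTAG00000052673 had 0 FPKM in MII library 3 and 6.14 and 6.49 FPKM in the other MII libraries, against 6.21, 6.15 and 7.5 FPKM in GV, and the cause was not tested.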
